A study of Mus musculus with 18 samples.

Results

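The genes described here are 7 enzymes of cholesterol synthesis: Hmgcs1, Idi1, Fdps, Fdft1, Sqle, Lss and Dhcr7. They were chosen by symbol from a table of 21859 gene rows, in which all 7 were found. All 7 also passed the filter on low counts, which left 15944 genes. The working name of the set speaks of synthesis and uptake, but each of the 7 encodes a synthesis enzyme. Genes of sterol uptake and transport were therefore read from a separate list.

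The samples were RNA-seq libraries of the mouse retinal pigment epithelium, abbreviated RPE, a sheet of pigmented cells that supports the photoreceptors in front of it. The 4 groups were RPE of young mice (Young, 7 libraries), RPE of aged mice (Old, 4 libraries), aged RPE after AAV2-tTA (Old-Control, 3 libraries) and aged RPE after AAV2-tTA;TRE-OSK (Old-OSK, 4 libraries). AAV2 names a serotype of adeno-associated virus, a carrier of genes into cells. The protein tTA, a transactivator that tetracyclines switch, drives genes placed behind a TRE promoter. The reprogramming factors Oct4 (from Pou5f1), Sox2 and Klf4 make up OSK, so Old-Control and Old-OSK share the tTA vector and differ in the OSK vector. Strain, sex, ages, vector doses and times after injection are not given in the sources used here. No label says whether a library came from a single animal or a pool, so p-values measure the spread between these libraries.

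Cells build cholesterol from acetyl-CoA through mevalonate, isoprenoid diphosphates and squalene. When sterols in the endoplasmic reticulum are low, the protein SCAP escorts the transcription factor SREBP-2 (gene Srebf2) to the Golgi, where it is cut and freed to switch on most genes of the pathway together. INSIG proteins hold SCAP back when sterols are plentiful. The RPE takes up cholesterol from the blood and from the outer segment tips it engulfs every day, makes some itself, and exports it in lipoprotein particles.

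Library totals lay between 18104828 and 32348136 counts. The 10 RPE marker genes summed to 27876 to 43231 CPM (read counts scaled by library size and TMM factor) in Young. They summed to 18651 to 32022 CPM in Old, 15010 to 41607.5 CPM in Old-Control and 12383 to 21613 CPM in Old-OSK. None of these genes was at 0 in every library. Markers of rods were present in every library, summing to between 450.6 and 19731 CPM. Old replicate 4 and Old-Control replicate 2 stood apart from their groups on the first principal component of all genes, among the scores of Old-OSK. The mean log2 CPM of the 7 enzymes had a correlation of 0.021 with that component over the 18 libraries. The library names of Young replicates 5 to 7, Old-Control replicates 2 and 3 and Old-OSK replicate 4 carry a letter M that the labels do not explain. Those 6 libraries had 157 to 259 CPM on 4 Y-linked genes, against at most 4.45 CPM in the other 12.

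RefSeq promoters (GRCm38.p6) were held for 4 of the 7 genes, and 3 are shown because the genes moved together across libraries and sterol-responsive promoters are known to carry binding letters for SREBP and its partner NF-Y. Each is the plus strand, 250 bases up to the base before the RefSeq start. Capitals mark matches on either strand to TCACNCCAC (N is any base, a form of the sterol regulatory element) and to CCAAT, the NF-Y box, which reads ATTGG on the opposite strand. The windows are chr13:119690101-119690350 for Hmgcs1, chr10:76531355-76531604 for Lss and chr7:143822917-143823166 for Dhcr7.
Hmgcs1: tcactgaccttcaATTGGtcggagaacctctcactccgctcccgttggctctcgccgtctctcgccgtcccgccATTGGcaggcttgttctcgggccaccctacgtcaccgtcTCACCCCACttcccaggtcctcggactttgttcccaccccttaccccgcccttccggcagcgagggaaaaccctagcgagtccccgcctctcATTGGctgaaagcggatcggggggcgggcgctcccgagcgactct
Lss: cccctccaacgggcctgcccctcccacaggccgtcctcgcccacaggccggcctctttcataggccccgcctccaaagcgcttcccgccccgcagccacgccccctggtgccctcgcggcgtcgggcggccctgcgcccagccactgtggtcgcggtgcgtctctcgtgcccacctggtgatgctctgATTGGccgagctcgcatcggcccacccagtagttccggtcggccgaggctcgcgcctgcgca
Dhcr7: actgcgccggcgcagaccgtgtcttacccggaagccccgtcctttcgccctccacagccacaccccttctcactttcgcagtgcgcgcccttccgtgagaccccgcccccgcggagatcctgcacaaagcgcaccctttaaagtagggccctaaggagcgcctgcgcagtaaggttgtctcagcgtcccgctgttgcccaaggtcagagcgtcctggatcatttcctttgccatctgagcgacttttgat

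The Hmgcs1 window held 1 sterol regulatory element match, TCACCCCAC, whose first base lay 137 bases before the start, and 3 NF-Y box matches at 237, 176 and 45 bases before it. The Lss window held 1 NF-Y box match, at 62 bases. The Idi1 window, whose letters are not shown, held 2, at 45 and 14 bases, and no sterol regulatory element match. Both lie past the gene's GENCODE start, so inside the gene as GENCODE draws it. At the Dhcr7 start shown neither motif matched, and at a further RefSeq start of the gene, 143830214, there were 2 NF-Y box matches. A GC box (GGGCGG) matched 2 times in Hmgcs1, 2 times in Lss, 1 time in Idi1 and 1 time at the Dhcr7 start shown. Over 32851 promoters of the same length, 1.05% held the sterol regulatory element, 33.8% the NF-Y box and 32.7% the GC box. No match overlapped a match to another motif. A match describes letters in the window and is no measurement of binding.

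The genes lie apart from each other in the genome (GRCm38, GENCODE vM21), at chr13:119690379-119708260 for Hmgcs1, chr13:8885501-8892451 for Idi1, chr3:89093588-89101959 for Fdps, chr14:63145150-63179578 for Fdft1, chr15:59315077-59331192 for Sqle, chr10:76531588-76557138 for Lss and chr7:143823145-143848410 for Dhcr7. Fdps and Fdft1 are on the minus strand and the other 5 on the plus strand. Per kilobase of annotated exon, the mean level in Young was highest for Fdft1 (43.2 CPM per kb) and Hmgcs1 (39.4 CPM per kb). Sqle followed at 27.3 CPM per kb, and Idi1 (9.20 CPM per kb), Dhcr7 (7.51 CPM per kb) and Lss (4.43 CPM per kb) were lower. Fdps was lowest at 0.687 CPM per kb. These per-length levels use all annotated exon bases of a gene, 10787 for Lss and 3505 for Idi1, and depend on that annotation.

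Read assignment limits Fdps and Fdft1 most. Fdps had 14 to 208 counts per library. Of its exon bases, 26.7% are shared with Gm43738 on the same strand (0 to 6 counts), and 26.2% of the 50-base stretches in its transcripts recur in transcripts of other genes, so its level is uncertain. For Fdft1, 18.3% of exon bases lie opposite exons of Ctsb, a lysosomal protease gene with 26728 to 53437 counts. Reads of Ctsb and Fdft1 cannot be told apart there, and the strand setting of the counting is not given in the sources used here. Exons of other genes also lie opposite 12.1% of the exon bases of Hmgcs1, 9.22% of Idi1 and 3.53% of Lss. Those other genes have no row of counts. Ctsb itself had a log2 fold change of 0.11 in Old against Young (SE 0.12, adjusted p = 0.583) and of -0.10 in Old-OSK against Old-Control (SE 0.15, adjusted p = 0.753). Of the 50-base stretches of Fdft1 and Idi1, 26.5% and 25.3% recur in transcripts of other genes. That share was 11.6% for Hmgcs1, 1.86% for Lss, 1.37% for Dhcr7 and 0.0358% for Sqle.

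The comparison of Old with Young RPE asks how the pathway's transcripts differ with age. Hmgcs1, Fdft1 and Dhcr7 fell in Old RPE, by 1.71-fold, 1.65-fold and 1.38-fold. Idi1 and Sqle were also lower, by 1.68-fold and 1.55-fold, without passing the test. Lss and Fdps differed little in their means. Of the 7 genes, 3 were called lower at an adjusted p under 0.05 and none higher, where 4.16% of all 15944 genes were called lower and 5.4% higher (edgeR quasi-likelihood test, Benjamini-Hochberg adjustment over all genes, all 18 libraries in the fit). Their median log2 fold change was -0.63, beside -0.00 over all genes tested.

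**Figure D1:**
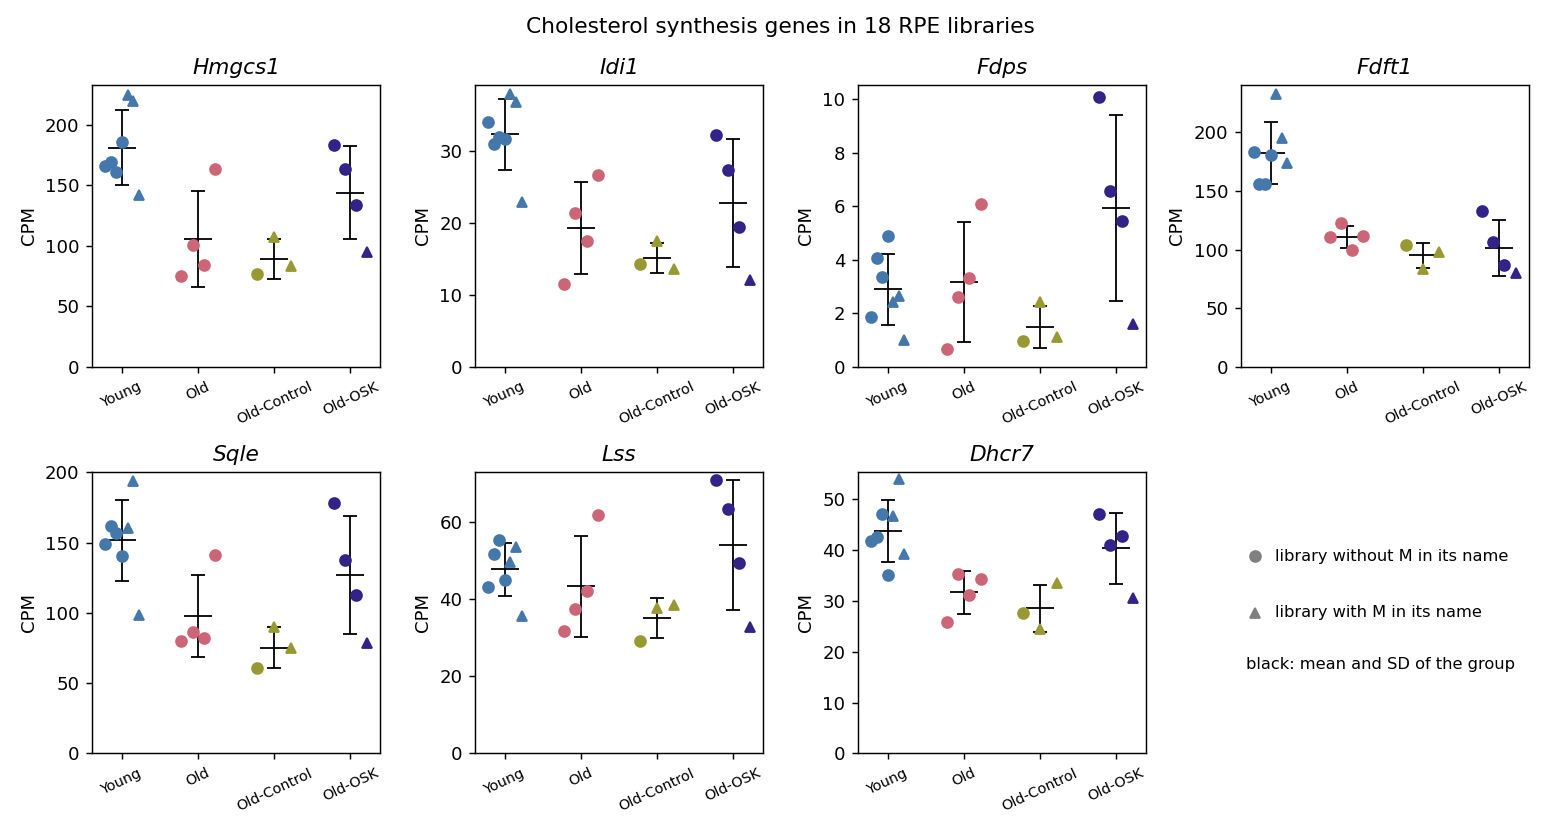
CPM of the 7 enzymes in each library, by group, with the group mean and SD in black; triangles are libraries with M in their name. Young and Old overlap for every gene but Fdft1, Old-OSK replicate 4 is the lowest Old-OSK library for all 7 genes, and Old-Control has the lowest mean for all 7.

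Hmgcs1 condenses acetyl-CoA and acetoacetyl-CoA into HMG-CoA at the head of the pathway. Its level in Young ran from 142 to 225 CPM with a median of 168.9 CPM. In Old it was 75.3, 100.5, 83.9 and 163 CPM in replicates 1 to 4. Old replicates 1 to 3 lay below every Young library and Old replicate 4 lay inside the Young range. Hmgcs1 fell by 0.78 on the log2 scale (SE 0.21, edgeR adjusted p = 0.0355).

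Idi1 interconverts the isoprenoid units isopentenyl and dimethylallyl diphosphate. Young libraries held 22.9 to 37.8 CPM (median 31.8 CPM). Old libraries held 11.5, 21.3, 17.5 and 26.6 CPM. Old replicates 1 to 3 were again below all Young libraries, and Old replicate 4 was above the lowest of them. Its log2 fold change of -0.74 (SE 0.24) had an adjusted p of 0.0583 in edgeR and did not pass.

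Fdps joins these units into farnesyl diphosphate, from which sterols, dolichol, ubiquinone and protein prenyl groups branch. Its counts were low, with 1.01 to 4.87 CPM in Young (median 2.65 CPM) and 0.671, 2.61, 3.31 and 6.07 CPM in Old. The Old libraries spread beyond the Young range at both ends. The log2 fold change was 0.14, with a 95% interval from -0.97 to 1.24 (edgeR adjusted p = 0.895).

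Fdft1, squalene synthase, commits farnesyl diphosphate to sterols. Young libraries lay between 156 and 233 CPM, with a median of 180.8 CPM. Old libraries had 110, 123, 99.2 and 111 CPM. Every Old library was below every Young library, a separation in that direction that 5.61% of all genes showed. Fdft1 fell by 0.72 on the log2 scale (SE 0.14, edgeR adjusted p = 0.00547).

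Sqle, squalene epoxidase, adds oxygen to squalene and is a rate-limiting step of the sterol branch. Its Young level ran from 98.7 to 194 CPM (median 157 CPM). Old replicates had 80.1, 86.7, 82.4 and 142 CPM. Old replicates 1 to 3 lay close together below the Young range, and Old replicate 4 fell within it. Its log2 fold change of -0.63 (SE 0.22) had an adjusted p of 0.0716 in edgeR. It passed in 2 of the 11 fits that leave out a library, without Old replicate 4 (-0.87, edgeR adjusted p = 0.0486) and without Young replicate 7 (-0.72, adjusted p = 0.0477). Over the 11 fits the adjusted p reached 0.159.

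Lss closes epoxidised squalene into lanosterol, the first sterol. Young libraries held 35.7 to 55.5 CPM (median 49.6 CPM) and Old libraries 31.9, 37.6, 42.2 and 62.0 CPM. Old replicate 4 was above all Young libraries and Old replicate 1 below them. For Lss the log2 fold change was -0.14 with a 95% interval from -0.56 to 0.28 (edgeR adjusted p = 0.689).

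Dhcr7 carries out the last step of cholesterol synthesis, the reduction of 7-dehydrocholesterol. It ran from 34.98 to 53.9 CPM in Young, with a median of 42.5 CPM, and was 25.8, 35.3, 31.0 and 34.4 CPM in Old. Old replicate 2 passed the lowest Young library by a small margin, and the other 3 Old libraries were below all Young ones. Dhcr7 fell by 0.47 on the log2 scale (SE 0.14, edgeR adjusted p = 0.0425).

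Fdft1 kept its call most often of the 3. It remained called when any of the 11 libraries of the comparison was left out in turn (edgeR adjusted p from 0.00538 to 0.0256). Hmgcs1 remained called in 5 of those 11 fits (adjusted p from 0.00958 to 0.0861) and Dhcr7 in 2 of 11 (adjusted p from 0.0374 to 0.102). Among libraries without M in their name, the log2 fold changes were -0.61 for Fdft1 (adjusted p = 0.0378), -0.69 for Hmgcs1 (adjusted p = 0.104) and -0.40 for Dhcr7 (adjusted p = 0.0985). No Old library carries an M.

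Markers of other cells moved with age beside these genes. The 10 macrophage markers summed to 497 to 686 CPM in Young and 750 to 1255 CPM in Old. Of the 10, 8 rose, beside 5.4% of all genes called higher. The 10 rod markers summed to 451 to 3373 CPM in Young and 2375 to 8038 CPM in Old, with all 10 positive and none called. With the rod marker level as a covariate, Fdft1 fell by 0.58 on the log2 scale (edgeR adjusted p = 0.0312). In the same fit Hmgcs1 had -0.69 (adjusted p = 0.125) and Dhcr7 had -0.28 (adjusted p = 0.192). The part of macrophage RNA was not tested, and in whole tissue fewer cells of a type and less RNA per cell cannot be told apart.

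The comparison of Old-OSK with Old-Control asks how the OSK vector, beside the shared tTA vector, moves the pathway in aged RPE. All 7 genes had higher means in Old-OSK, from 1.07-fold for Fdft1 to 3.93-fold for the low-count Fdps. None passed the test with all libraries in (edgeR quasi-likelihood, adjusted p from 0.0952 to 0.781), where 0.408% of all genes were called higher. At an unadjusted p under 0.05, 5 of the 7 were higher, beside 13.3% of all genes. DESeq2 called 2 of the 7, Fdps and Dhcr7, and 6.38% of all genes as higher. The median log2 fold change of the 7 was 0.62, beside -0.03 over all genes. Markers of cell types moved with the groups too. Of the 10 RPE markers 7 were negative, with a list median of -0.76 and none called. All 7 had an unadjusted p under 0.05, beside 13% of all genes lower at that p. Of 5 melanocyte markers 4 were positive, with a median of 0.41 and none called. At that p 3 differed (Kit and Erbb3 higher, Sox10 lower), beside 26.3% of all genes in either direction. Their part in the enzymes' values was not tested.

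Hmgcs1 had 76.3, 107 and 82.8 CPM in Old-Control replicates 1 to 3 and 183, 163, 134 and 94.97 CPM in Old-OSK replicates 1 to 4. Old-OSK replicates 1 to 3 were above all controls, while Old-OSK replicate 4 lay among them. The log2 fold change was 0.69 (SE 0.26, edgeR adjusted p = 0.117). Idi1 had 14.2, 17.5 and 13.6 CPM in Old-Control and 32.1, 27.3, 19.4 and 12.1 CPM in Old-OSK. Its Old-OSK replicate 4 was below every control and the other Old-OSK libraries above every control. In log2 terms the difference was 0.59, with a 95% interval from -0.02 to 1.20 (edgeR adjusted p = 0.209).

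Fdps had 0.975, 2.40 and 1.11 CPM in Old-Control and 10.1, 6.57, 5.46 and 1.61 CPM in Old-OSK. In raw numbers these were 23 to 71 counts in controls and 52 to 208 counts in Old-OSK. Old-OSK replicates 1 to 3 were above all controls and replicate 4 lay among them. The log2 fold change of 1.97 had the widest error of the 7 (SE 0.69, edgeR adjusted p = 0.104). Fdft1 was the exception in this comparison. It had 104, 83.5 and 97.6 CPM in Old-Control and 133, 106, 86.4 and 80.1 CPM in Old-OSK. The groups interleaved, and the log2 fold change was 0.09 with a 95% interval from -0.25 to 0.44 (edgeR adjusted p = 0.781).

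Sqle had 60.9, 89.8 and 75.0 CPM in Old-Control and 178, 138, 113 and 78.5 CPM in Old-OSK. Lss had 29.3, 37.8 and 38.5 CPM in Old-Control and 71.1, 63.6, 49.5 and 32.8 CPM in Old-OSK. Dhcr7 had 27.6, 24.4 and 33.4 CPM in Old-Control and 47.0, 40.9, 42.8 and 30.5 CPM in Old-OSK. For each of these 3 genes Old-OSK replicates 1 to 3 were above all controls and replicate 4 was not. The log2 fold change was 0.75 for Sqle (SE 0.27, edgeR adjusted p = 0.107). It was 0.62 for Lss (SE 0.24, adjusted p = 0.131) and 0.50 for Dhcr7 (SE 0.17, adjusted p = 0.0952).

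The count of enzymes called in this comparison changed most on leaving out Old-OSK replicate 4. DESeq2 and the fit without Old-Control replicate 2 changed it too. Old-OSK replicate 4 was the lowest Old-OSK library for 7 of 7 genes. For 6 of 7 genes, all but Fdft1, the other 3 Old-OSK libraries were above every control. Without Old-OSK replicate 4, edgeR called 5 of the 7 genes higher, beside 5.65% of all genes. They were Sqle (0.89, adjusted p = 0.0359), Dhcr7 (0.58, adjusted p = 0.0338), Lss (0.76, adjusted p = 0.0370), Fdps (2.26, adjusted p = 0.0391) and Hmgcs1 (0.81, adjusted p = 0.0443). Idi1 (0.76, adjusted p = 0.0579) and Fdft1 (0.16, adjusted p = 0.545) did not pass. That fit belongs to the series that leaves out each library in turn, and it removes a library that is low in the outcome itself. It also leaves no Old-OSK library with an M in its name, while Old-Control replicates 2 and 3 carry one. M and the OSK vector therefore cannot be fully told apart in that fit.

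Several measurements moved with Old-OSK replicate 4. Its transcripts of the vector genes were the lowest of the 4 Old-OSK libraries, at 50.1 CPM for Pou5f1 (66.3 to 97.4 CPM in the others), 70.0 CPM for Sox2 (84.5 to 115 CPM) and 155 CPM for Klf4 (334 to 432 CPM). All 3 were still above the controls, which had at most 1.06, 15.9 and 33.6 CPM. Counts do not separate vector from endogenous transcripts. Its rod markers summed to 16709 CPM, against 3123 to 8210 CPM in the other Old-OSK libraries and 19731 CPM in Old-Control replicate 2. Its cone markers summed to 295 CPM (58.6 to 108 CPM in the other Old-OSK libraries) and its endothelial markers to 227 CPM (54.4 to 98.5 CPM). Its melanocyte markers summed to 306 CPM, below the other Old-OSK libraries (361 to 398 CPM). It is also the only Old-OSK library with an M in its name. The part of each in the result was not tested library by library. With the rod marker level as a covariate the 7 log2 fold changes ran from 0.10 to 1.95, and with M as a covariate from 0.09 to 1.41, with no gene called in either.

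As an alternative, the 6 libraries of Old-OSK and Old-Control that share a number were fitted with that number as a block. Old-OSK replicate 4 is left out there. The labels state no pairing. On the 4 Y-linked genes Old-Control replicates 2 and 3 had 186 and 199 CPM, against 0.624 and 0.206 CPM in Old-OSK replicates 2 and 3. Those numbers thus do not join libraries alike in Y-linked transcripts. The fit with the block called 461 genes in all. The same 6 libraries without the block gave 990 and all 18 libraries gave 116, so the counts differ by the libraries in the fit as well as by the block. With the block the 7 enzymes had log2 fold changes from 0.18 to 2.34, and none was called (edgeR adjusted p from 0.0568 to 0.527).

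**Figure D2:**
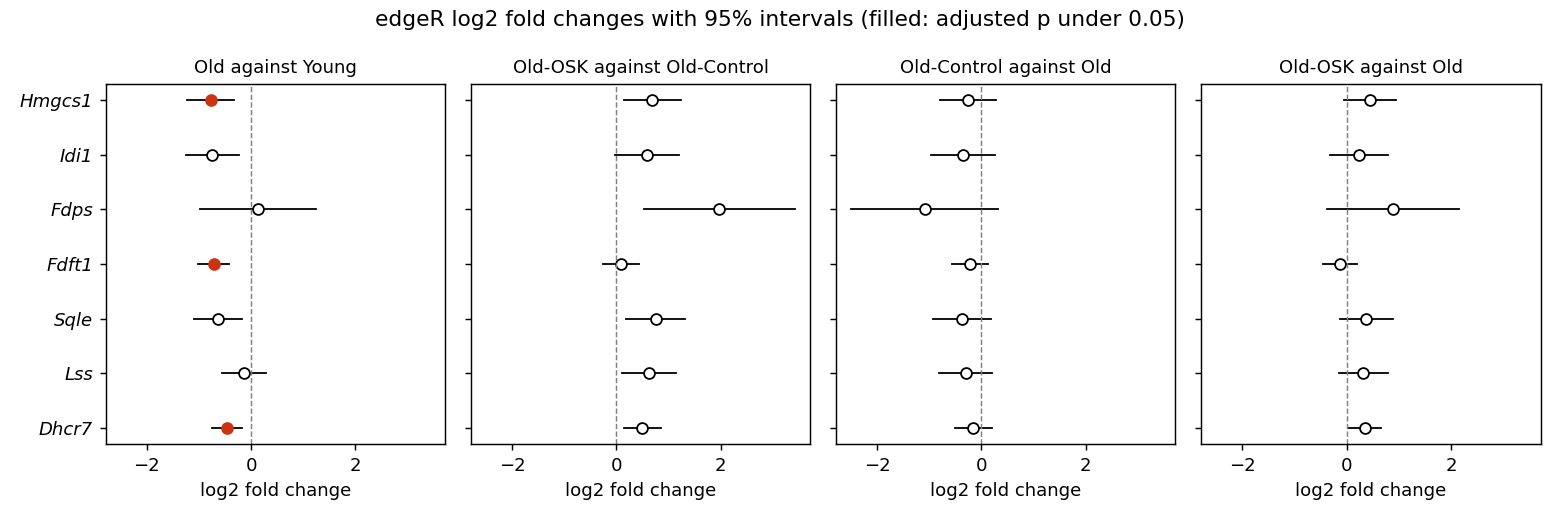
Log2 fold change of each enzyme with its 95% interval in 4 comparisons, filled where the edgeR adjusted p was under 0.05. Hmgcs1, Fdft1 and Dhcr7 are filled in Old against Young, and no gene is filled in the other 3 comparisons, which share libraries with each other.

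The comparison of Old-Control with Old asks about the tTA vector without OSK, but it does not isolate that vector. Most Old-Control libraries carry an M in their name and no Old library does. No injection is named for Old, so injection and vector cannot be told apart. All 7 genes had lower means in Old-Control, with log2 fold changes from -1.08 for Fdps to -0.15 for Dhcr7. None was called by edgeR (adjusted p from 0.900 to 0.921) or by DESeq2. At an unadjusted p under 0.05 none of the 7 differed, and over all genes 0% were called and 3.74% had such a p. The intervals were wide, from -0.79 to 0.29 for Hmgcs1 and from -0.93 to 0.18 for Sqle. With M as a covariate all 7 log2 fold changes stayed negative, from -0.44 for Fdps to -0.15 for Dhcr7. These controls are also the reference for Old-OSK, so both comparisons share them.

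Old-OSK against Old, which differ by both vectors, gave smaller values than Old-OSK against Old-Control for all 7 genes, and these comparisons share the Old-OSK libraries. The log2 fold changes were 0.89 for Fdps, 0.44 for Hmgcs1, 0.38 for Sqle, 0.35 for Dhcr7, 0.32 for Lss, 0.24 for Idi1 and -0.13 for Fdft1. None was called by edgeR (adjusted p from 0.278 to 0.712), beside 0.84% of all genes called in either direction. Dhcr7 alone was higher at an unadjusted p under 0.05 in edgeR, beside 6.49% of all genes, and DESeq2 called none. The largest member value, that of Fdps, had a 95% interval from -0.37 to 2.15.

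Ordered by mean, Young was highest for Hmgcs1, Idi1, Fdft1, Sqle and Dhcr7, and Old-OSK was highest for Fdps and Lss. Old-Control was lowest for all 7. Between neighbours in that order the ranges of libraries overlapped throughout, except between Young and Old for Fdft1. The difference of neighbouring means passed the larger of their SDs for Fdft1 between Young and Old, for Idi1 between Young and Old-OSK, for Dhcr7 between Old-OSK and Old, and for Fdps between Young and Old-Control. Summed over the 7 genes, the level was 642 ± 86.1 CPM in Young (SD, n = 7) and 412 ± 93.8 CPM in Old (SD, n = 4). It was 339 ± 24.8 CPM in Old-Control (SD, n = 3) and 495 ± 138 CPM in Old-OSK (SD, n = 4). Old-OSK had the widest spread, from 331 to 655 CPM. Its lowest library lay within the Old-Control range of 313 to 363 CPM and its highest above the Young median of 619 CPM.

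The 7 genes followed each other across libraries, with Fdft1 and Fdps least alike over all 18. After group means were subtracted, Fdft1 and Dhcr7 were the least like the mean of the others (r = 0.397 and 0.610). Over the 18 libraries the 21 pairs had Pearson correlations of log2 CPM from 0.049 (Fdps with Fdft1) to 0.952 (Hmgcs1 with Sqle), with a median of 0.748. After group means were subtracted the range was 0.169 to 0.930 and the median 0.679. The 10 pairs without Fdft1 and Fdps had 0.716 to 0.952, and 0.547 to 0.930 within groups. These values are descriptions over 18 libraries that share tissue and scaling, and the cell mix of a library enters all genes at once.

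**Figure D3:**
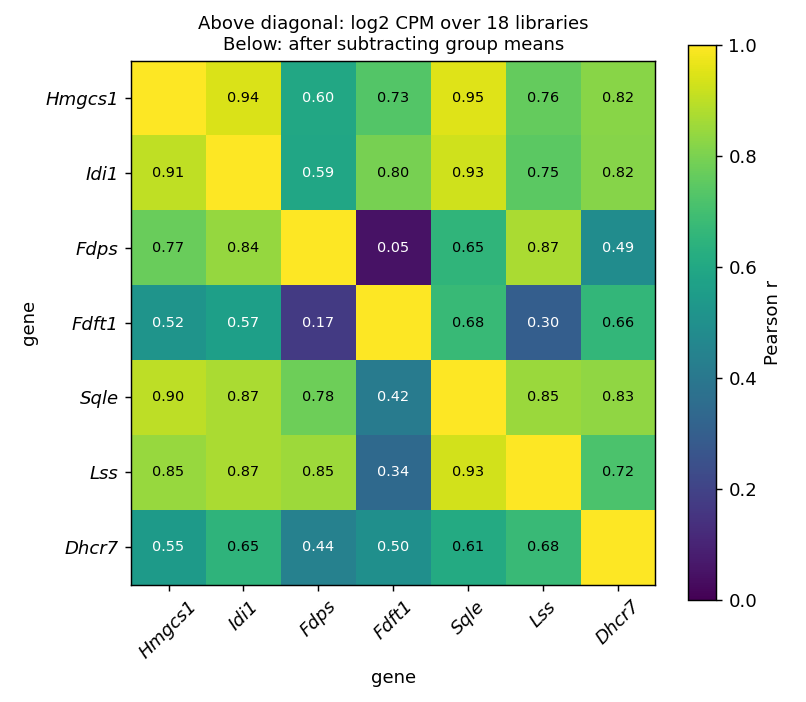
Pearson r of log2 CPM for each pair of enzymes over 18 libraries (above the diagonal) and after subtracting group means (below it). Above the diagonal Hmgcs1, Idi1 and Sqle are the most alike (0.93 to 0.95). Below it the pairs of these 3 and Lss run from 0.85 to 0.93 after rounding. The lowest pair is Fdps with Fdft1.

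Set against the mean of the other 6, Sqle (r = 0.948), Idi1 (0.925) and Hmgcs1 (0.924) were most typical. Lss (0.872) and Dhcr7 (0.809) followed, and Fdps (0.593) and Fdft1 (0.526) were least typical. Within groups the values were 0.951 for Idi1, 0.932 for Lss, 0.905 for Sqle, 0.897 for Hmgcs1, 0.789 for Fdps, 0.610 for Dhcr7 and 0.397 for Fdft1. Fdft1 had the lowest p of the 7 genes in Old against Young and the lowest of these correlations.

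Genes outside the 7 were ranked by their correlation with the mean log2 CPM of the 7, over the 10227 genes whose own mean was 3 or more. Cyp51, the lanosterol demethylase that acts after Lss, ranked first with r = 0.967 (0.946 within groups). Acat2, which makes acetoacetyl-CoA for Hmgcs1, had r = 0.897 (0.919 within groups). Srebf2, the gene of the pathway's transcription factor, had r = 0.896 (0.794 within groups). Stard4, a carrier of sterols between membranes, had r = 0.871 (0.827 within groups). Nsdhl, a sterol C4 demethylation enzyme, had r = 0.870 (0.921 within groups). Insig1, the sterol-responsive retention protein, had r = 0.868 (0.797 within groups). Ranked within groups, Cyp51, Nsdhl and Acat2 stood at 3, 10 and 12 of 10227. Stard4, Insig1 and Srebf2 stood lower there, at 277, 468 and 486. Of the 14 other synthesis genes, 10 ranked among the first 100 over all libraries and 4 within groups.

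**Figure D4:**
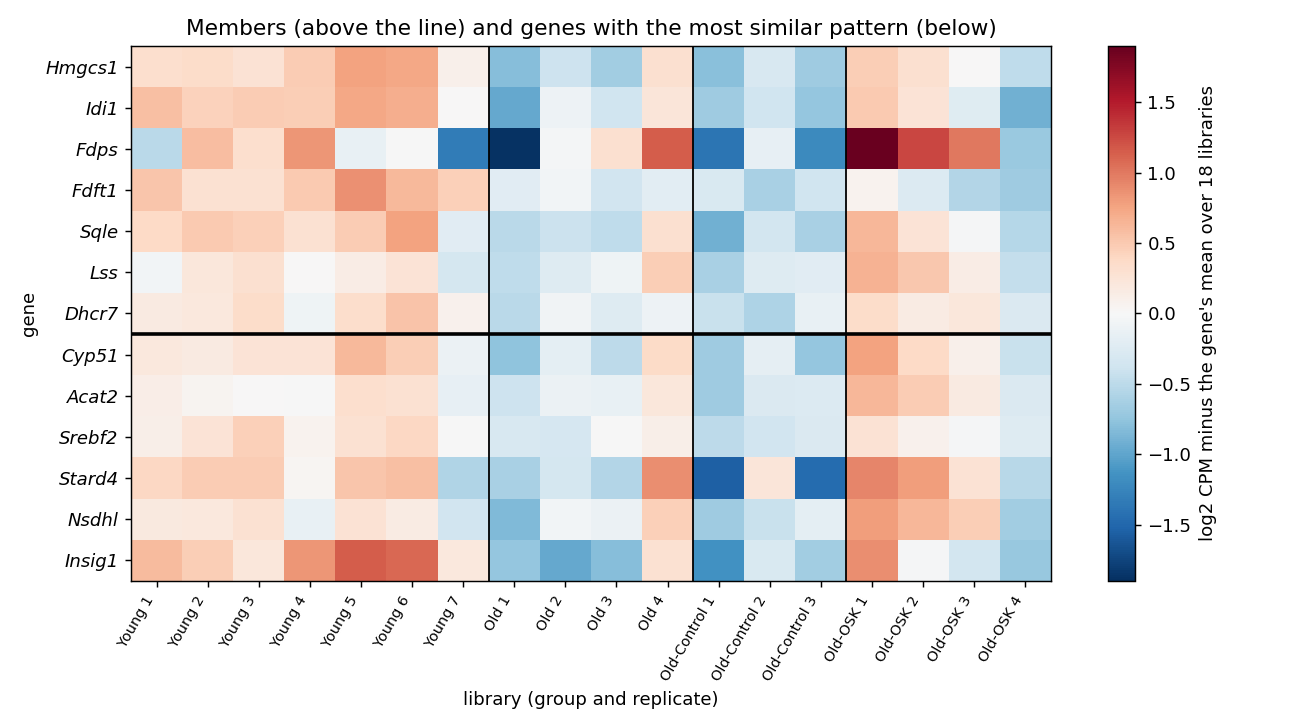
Log2 CPM minus each gene's mean over the 18 libraries, for the 7 enzymes (above the line) and the 6 named genes with the most similar pattern (below it), with libraries in columns. Most Young columns, Old replicate 4 and Old-OSK replicates 1 and 2 are red for most genes, and Old-Control columns and Old-OSK replicate 4 are mostly blue.

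The other genes of the pathway were read from separate lists. Of 14 further synthesis genes, 3 fell in Old against Young, beside 4.16% of all genes called lower. They were Msmo1, the sterol C4 methyl oxidase (-0.95, edgeR adjusted p = 0.00534), Hsd17b7, a 3-ketosterol reductase (-0.58, adjusted p = 0.0147), and Mvd, the mevalonate diphosphate decarboxylase (-0.76, adjusted p = 0.0397). In total 11 of the 14 were negative, with a median of -0.16. In Old-OSK against Old-Control all 14 were positive and overlapped with the controls, with a median of 0.53, and none was called. At an unadjusted p under 0.05, 8 of the 14 were higher, beside 13.3% of all genes. The lowest p belonged to Acat2 (0.68, adjusted p = 0.0761) and Ebp, a sterol isomerase (0.80, adjusted p = 0.0788). Without Old-OSK replicate 4, edgeR called 8 of the 14, beside 5.65% of all genes called higher in that fit. The library left out is the lowest Old-OSK library in the summed level of these same 14 genes, at 559 CPM against 883 to 1450 CPM. It is also the only Old-OSK library with an M in its name.

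Of 7 genes that control SREBP, all were negative in Old against Young and 2 fell, beside 4.16% of all genes called lower. They were Insig1 (-1.16, edgeR adjusted p = 0.0353) and Mbtps2, the intramembrane protease that frees SREBP (-0.47, adjusted p = 0.0233). Insig1 had a mean of 230 ± 62.3 CPM in Young (SD, n = 7) and 103 ± 47.0 CPM in Old (SD, n = 4). In Old-OSK against Old-Control 4 of the 7 were positive and none was called. The lowest p belonged to Srebf2 (0.41, adjusted p = 0.104) and Scap (-0.58, adjusted p = 0.114).

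Of 14 genes of sterol uptake and transport, 2 fell and 2 rose in Old against Young, beside 4.16% of all genes called lower and 5.4% higher. Scarb1, the HDL receptor (-0.64, edgeR adjusted p = 0.0343), and Vldlr, a lipoprotein receptor (-0.52, adjusted p = 0.0353), fell. Cd36, a scavenger receptor also found on macrophages (1.25, adjusted p = 0.00652), and Mylip, a ubiquitin ligase that degrades lipoprotein receptors (0.32, adjusted p = 0.0399), rose. In Old-OSK against Old-Control 9 of the 14 were negative, with a median of -0.06. Vldlr was the single gene called (-0.81, edgeR adjusted p = 0.0342), beside 0.32% of all genes called lower. Vldlr had 214, 168 and 192 CPM in Old-Control and 104, 96.0, 99.1 and 137 CPM in Old-OSK. The groups did not overlap, a separation in that direction that 5.84% of all genes showed. Old-OSK replicate 4 was the closest to the controls.

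**Figure D5:**
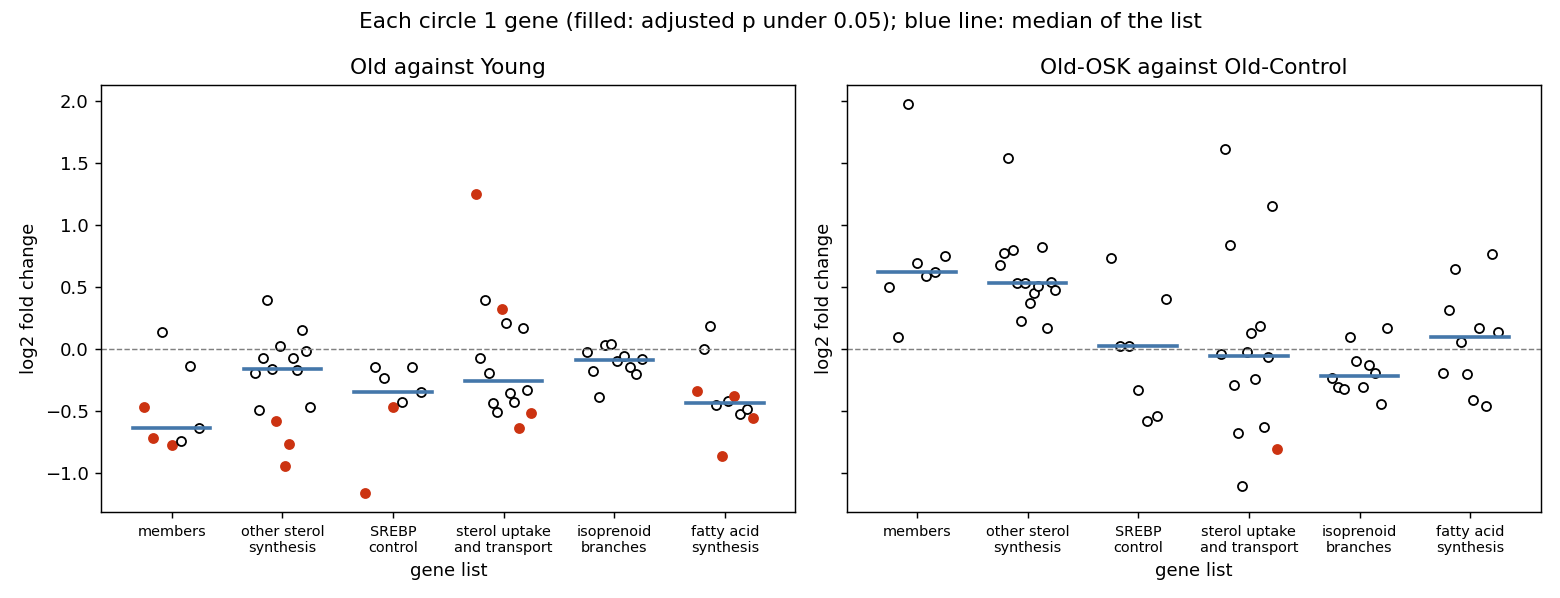
Log2 fold change of each gene in the 7 enzymes and in 5 further lists, for Old against Young (left) and Old-OSK against Old-Control (right), filled where the edgeR adjusted p was under 0.05, with the list median as a line. The medians of the 7 enzymes and of the other synthesis genes are -0.63 and -0.16 on the left and 0.62 and 0.53 on the right, while the other 4 lists lie nearer 0 on the right.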

How the data were processed

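RNA-seq was made from polyA RNA of mouse RPE with a SMART-Seq v4 low-input kit and Nextera XT libraries, per the labels' protocols. Reads were aligned with STAR 2.7.1a and counted with featureCounts 1.6.2, per the submitters' processing notes, which name the builds GRCm38 and GRCh38 with no role. The annotation, strand setting and treatment of multi-mapped reads are not given in the sources used here. The authors deposited raw counts per gene for all 18 libraries, and each column was matched to a library by its title. Groups came from the titles. PCR reads carry no molecular identifiers, so counts are not independent molecules. Of the 21859 rows, 1096 were at 0 in every library.

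Genes with low counts were removed by edgeR 4.0.16 (filterByExpr, minimum count 10, minimum total 15, in R 4.3.3), and counts were scaled by TMM and fitted with 4 group means over all 18 libraries. Tests were edgeR's quasi-likelihood tests, with Benjamini-Hochberg adjustment over 15944 genes, and a gene is called at an adjusted p under 0.05. CPM are edgeR's values after TMM, and log2 CPM used a prior count of 2. Standard errors were derived from the F statistic. The code was tested on simulated data. Replicate libraries of a group correlated at 0.928 to 0.983 across genes and differed by more than sampling noise, so none was merged.

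After group means were subtracted, Old-OSK and Old-Control libraries with the same number in their titles were correlated across genes. The values were r = 0.103, 0.421 and 0.339 for numbers 1, 2 and 3. The block by number rests on this check only. Libraries of unlike number were not correlated beside them, so the check cannot show that the number pairs libraries. In each of the other comparisons a negative correlation occurred. Alternatives were other scaling (DESeq2 1.42.0 size factors), other filters, DESeq2, M or the rod marker level as a covariate, subsets of libraries and the replicate block.

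The members, gene lists and tests were chosen with earlier results of these data known. The text names all 7 enzymes, from each further list the called genes or else the 2 with the lowest p, and the 6 genes most like the mean of the 7. Further genes that fit this naming rule are not reported here. Gene positions are from GENCODE vM21 (GRCm38) and promoters from RefSeq (GRCm38.p6), whose table holds 32851 promoters of 27025 genes.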

Additional observations from a re-analysis of the deposited data

Results flagged for a closer look

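Sqle in Old replicate 4 was at 142 CPM, far above the other 3 Old libraries, of which the nearest was at 86.7 CPM. The gap was 0.892 of the whole range of the group, above the limit of 0.829 for 4 libraries. Of 21 groups of 4 to 7 libraries looked at in this way it was the only such value, and chance gives about 1 in 20. The same library was the highest Old library for 5 of the 7 enzymes.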

How the results depend on the processing

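In Old against Young the count of enzymes called was 3. It was 5 with DESeq2, 1 with the letter M as a covariate and 1 with the rod marker level as a covariate. It was 1 among libraries without M, 1 among equally numbered libraries and 0 with the replicate block. The labels state no pairing by number. Leaving out a library gave 1 to 5, the highest without Young replicate 7. Over all genes the count was 1524, and 2452, 600, 492, 445, 191 and 0 in the same order of settings, 622 without Old replicate 4 and Old-Control replicate 2 (chosen after seeing the data), and 393 to 2140 on leaving out a library. In Old-OSK against Old-Control the count of enzymes was 0, and 2 with DESeq2, 1 among equally numbered libraries (Fdps), 3 without the 2 libraries that stood apart (Hmgcs1, Fdps and Sqle), and 0 to 5 on leaving out a library, with 5 without Old-OSK replicate 4 and 1 without Old-Control replicate 2. Over all genes it was 116, and 1583 with DESeq2, 58 with M as a covariate, 2 in a fit of the compared groups alone, 461 with the replicate block, 990 among equally numbered libraries, 3729 without the 2 libraries, and 13 to 2881 on leaving out a library. In Old-OSK against Old it was 134 over all genes, and 457 with DESeq2, 277 among libraries without M, 74 in the compared groups alone, 1 with the block, 74 among equally numbered libraries, 2228 without the 2 libraries and 50 to 1045 on leaving out a library. For the enzymes it was 0, and 1 (Hmgcs1) without the 2 libraries, with 0 to 1 on leaving out a library. In Old-Control against Old every setting gave 0. The block called no enzyme in any comparison.

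Some directions turned. Fdps in Old against Young (0.14) was -0.15 with M as a covariate, -0.15 among libraries without M, -0.40 with the block, -0.16 among equally numbered libraries, -0.38 without the 2 libraries and -0.39 to 0.47 on leaving out a library. Fdft1 in Old-OSK against Old-Control (0.09) was -0.022 without the 2 libraries and -0.10 to 0.16 on leaving out a library. Hmgcs1 in Old-Control against Old (-0.25) was 0.022 with the block, 0.029 among equally numbered libraries and -0.40 to 0.037 on leaving out a library. Idi1 in Old-OSK against Old (0.24) was -0.0099 to 0.44 on leaving out a library. The cause of these turns was not tested. A fit of libraries without M could not be made for comparisons with Old-Control, which has 1 such library. Fdps had the largest standard error of the 7 enzymes in all 4 comparisons, with 14 to 208 counts and Old libraries from 0.671 to 6.07 CPM.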

Other observations

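The fatty acid arm of the SREBP pathway was read from 10 genes. In Old against Young 9 of the 10 were negative and 4 fell, beside 4.16% of all genes called lower. Fads1, a fatty acid desaturase, fell by 0.86 on the log2 scale (edgeR adjusted p = 0.00216), from 427 ± 40.2 CPM (SD, n = 7) to 235 ± 49.8 CPM (SD, n = 4). Scd2, a stearoyl-CoA desaturase, fell by 0.56 (adjusted p = 0.0260), Acaca, the acetyl-CoA carboxylase, by 0.34 (adjusted p = 0.0342) and Fasn, the fatty acid synthase, by 0.38 (adjusted p = 0.0495). In Old-OSK against Old-Control 6 of the 10 were positive and none was called. Scd1, another stearoyl-CoA desaturase, had the lowest p there (0.76, adjusted p = 0.0643). It rose in Old-OSK against Old (0.82, adjusted p = 0.0373), with 61.3, 38.9, 50.2 and 64.7 CPM in Old and 83.3, 106, 97.0 and 92.4 CPM in Old-OSK. The groups did not overlap, a separation in that direction that 3.7% of all genes showed, and 0.652% of all genes were called higher. Old-OSK replicate 4 was level with the other Old-OSK libraries.

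Farnesyl diphosphate also feeds dolichol, ubiquinone and protein prenylation. Of 10 genes on those branches none was called in Old against Young, with a median log2 fold change of -0.09. In Old-OSK against Old-Control 8 of the 10 were negative, with a median of -0.21, and none was called. Dhdds, a subunit of the dolichol-chain synthase, had -0.31 (edgeR adjusted p = 0.0841), and Ggps1, the geranylgeranyl diphosphate synthase, had -0.31 (adjusted p = 0.0944). At an unadjusted p under 0.05, 4 of the 10 differed, beside 26.3% of all genes.

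The mean log2 CPM of 5 genes expressed in melanocytes (Sox10, Kit, Mlana, Ednrb and Erbb3) correlated at 0.838 with that of the 7 enzymes over 18 libraries, and at 0.846 within groups. Their summed CPM, which gives most weight to the most abundant of them, correlated at 0.649 and at 0.452 within groups. The sums were 439 to 507 CPM in Young, 366 to 425 CPM in Old, 305 to 349 CPM in Old-Control and 306 to 398 CPM in Old-OSK. By mean log2 CPM the other marker lists correlated between -0.559 (endothelium) and 0.283 (stroma). By summed CPM they ran from -0.693 (macrophages) to 0.368 (stroma), and within groups from -0.499 (macrophages) to -0.016 (stroma). These 5 genes did not all move the same way. In Old-OSK against Old-Control Kit and Erbb3 were higher and Sox10 lower at an unadjusted edgeR p under 0.05. The melanocyte part in the enzymes' levels was not tested.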
